A study of Homo sapiens with 4 samples.

Results

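The ubiquitin ligase gene *DTX3L* and the interferon-inducible PARP genes *PARP9*, *PARP10*, *PARP12* and *PARP14* were followed as 1 group. They were found by symbol, as 5 of the 57820 genes in the deposited count table, and all 5 were above edgeR's filter on low counts, which kept 20528 genes. The RNA-seq libraries came from SK-N-SH, an established human neuroblastoma line, after transduction with lentivirus that expressed the long noncoding RNA *RP5-998N21.4* from the EF1a promoter (OE, n = 2) or with the empty lentivirus vector (vector control, or control, n = 2). Both conditions therefore carry a lentiviral vector, and untransduced cells were not analysed here. Control libraries are titled WT, whereas their treatment label gives the empty vector, and the latter was followed. The labels do not say that the 2 libraries of a condition came from separate cultures or transductions, so the p-values measure the spread between libraries, which may be technical. The smallest two-sided p that exact permutation of 2 libraries against 2 allows is 0.333.

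ADP-ribosylation is the transfer of ADP-ribose from NAD+ to proteins or nucleic acids. Most PARP enzymes attach single ADP-ribose units, whereas PARP1, PARP2 and the tankyrases build chains. Several PARP genes of the first kind, together with *DTX3L*, are induced by interferons through transcription factors such as STAT2 and IRF9, which act at the interferon-stimulated response element (ISRE). DTX3L and PARP9 form a complex that joins ubiquitin ligation with ADP-ribose recognition and is known for its part in DNA repair and in antiviral gene expression. PARP10, PARP12 and PARP14 are mono-ADP-ribosyltransferases with known antiviral activity.

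*DTX3L*, *PARP9* and *PARP14* lie together on chromosome 3 of hg19. *PARP9* is on the minus strand from 122246771 to 122283424 and *DTX3L* on the plus strand from 122283185 to 122294050, so the annotated starts of the pair overlap head to head by 240 bases. *PARP14* is on the plus strand from 122399686 to 122449687, 106 kb downstream of the end of *DTX3L*. *PARP12* is on chromosome 7, minus strand, between 139723549 and 139762751. The sequences around the starts are shown because members of the group are known interferon targets. The core of the ISRE was searched as GAAA, any 2 bases and GAAA on both strands, from 250 bases before to 50 bases after each gene's outermost annotated start, and each 30-base stretch below has the match in capitals. The sequence at *PARP10* is not reported here. The stretches are chr3:122283169-122283198 (plus strand) for *DTX3L*, chr3:122399647-122399676 (plus strand) for *PARP14* and chr7:139762742-139762771 (minus strand) for *PARP12*.
DTX3L: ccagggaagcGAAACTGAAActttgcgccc
PARP14: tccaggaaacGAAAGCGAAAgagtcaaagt
PARP12: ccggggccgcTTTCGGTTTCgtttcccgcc

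The match began 6 bases before the annotated start of *DTX3L* and ran across it. It began 29 bases before the start of *PARP14* and 10 bases before that of *PARP12*, where it was on the opposite strand to the gene. The window at the outermost start of *PARP9* held no such match, but the match at the *DTX3L* start also lies within the *PARP9* gene, between its outermost start and a further annotated start at 122283162. Of 20175 windows of protein-coding genes, 3.47% held the ISRE core. The core of the gamma-activated site, TTC, any 3 bases and GAA, was in 7.12% of the windows and in those of *PARP14* and *PARP9*. These matches are descriptions of the reference sequence and do not show binding in these cells. The 250 bases before the *PARP14* start (chr3:122399436-122399685, plus strand) and before the *PARP12* start (chr7:139762752-139763001, minus strand), one of a gene that was higher in both OE libraries and one of a gene whose groups overlapped, are given for comparison with the ISRE core in capitals.
PARP14: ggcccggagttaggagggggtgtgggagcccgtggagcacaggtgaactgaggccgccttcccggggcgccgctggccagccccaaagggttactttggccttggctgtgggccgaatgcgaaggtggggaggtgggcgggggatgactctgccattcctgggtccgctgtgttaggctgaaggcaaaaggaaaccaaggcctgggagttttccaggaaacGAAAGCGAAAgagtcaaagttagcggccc
PARP12: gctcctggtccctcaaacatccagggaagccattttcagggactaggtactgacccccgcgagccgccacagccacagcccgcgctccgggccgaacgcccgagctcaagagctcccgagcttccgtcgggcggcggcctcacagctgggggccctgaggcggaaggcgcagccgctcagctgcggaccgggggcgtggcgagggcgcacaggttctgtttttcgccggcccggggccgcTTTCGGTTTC

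Library totals were 23785164 and 24098041 control counts against 24601728 and 28307591 OE counts, and values are given as CPM, in which edgeR's TMM scaling (trimmed mean of M values) sets the library size. The overexpressed *RP5-998N21.4* averaged 1.39 ± 0.0213 CPM in vector control cells and 96.5 ± 0.816 CPM in OE cells (SD, n = 2), in the direction of the labels. Markers of other cell types were at or near 0: *CD3E*, *LYZ*, *HBB*, *ALB* and *KRT5* had 0 counts in all libraries, which allows up to 3 counts each, and the 8 markers summed to between 0.239 and 0.773 CPM. Of 8 adrenergic markers, 7 were tested and all 7 were higher in both OE libraries, as were 27.8% of all tested genes. Their summed level was 364 and 435 CPM in control against 689 and 654 CPM in OE libraries, with *TH*, the gene of the rate-limiting enzyme of catecholamine synthesis, at 0 counts in all libraries. At an unadjusted p under 0.05 in edgeR, 5 of the 7 were higher, against 10.1% of all tested genes. The thresholds given below were passed by 0 of the 7 in edgeR, as by 0% of all tested genes, and by 4 in DESeq2, against 4.35% called higher. Of 8 mesenchymal markers, 5 were lower in both OE libraries, against 27.6% of all tested genes, and 2 were higher in both, against 27.8%. Of these markers 0 passed the thresholds in edgeR and 3, all lower, in DESeq2, against 4.42% of all tested genes called lower. The sums overlapped, at 2596 and 2402 CPM in control against 2938 and 1996 CPM in OE libraries. The sum of OE replicate 1 held 1254 CPM of *VIM*, which was at 376 CPM in OE replicate 2. The part of these cell states in the results on *DTX3L* and the PARP genes was not tested, and in bulk RNA a larger share of expressing cells and more RNA per cell cannot be told apart.

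Of the 5 genes, *DTX3L*, *PARP14*, *PARP10* and *PARP9* were higher in both OE libraries than in both vector control libraries, by 1.35- to 1.43-fold, and *PARP12* overlapped between the conditions. The same pattern, with both OE libraries above, was found in 27.8% of all tested genes, and the reverse in 27.6%. At an unadjusted p under 0.05 in edgeR's quasi-likelihood test, these 4 of the 5 genes were higher in OE, against 10.1% of all tested genes. That count was 3 with the replicate number as a block and 3 with protein-coding transcripts alone, and 2 with the leading transcript alone. The 10.1% is from the fit without a block, on counts summed over all transcripts. The matching shares of all tested genes in the other fits are not given here, so these lower counts have no background to compare with. None of the 5 passed the thresholds taken from the study in edgeR's test, as 0% of all tested genes did. These are an adjusted p under 0.01 with an absolute log2 fold change above 0.5. The study applied them with DESeq2, a different test. With DESeq2, 1 of the 5, *DTX3L*, passed, against 4.35% of all tested genes called higher. The median log2 fold change over the 5 genes was 0.49, against 0.01 over all tested genes.

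**Figure D1:**
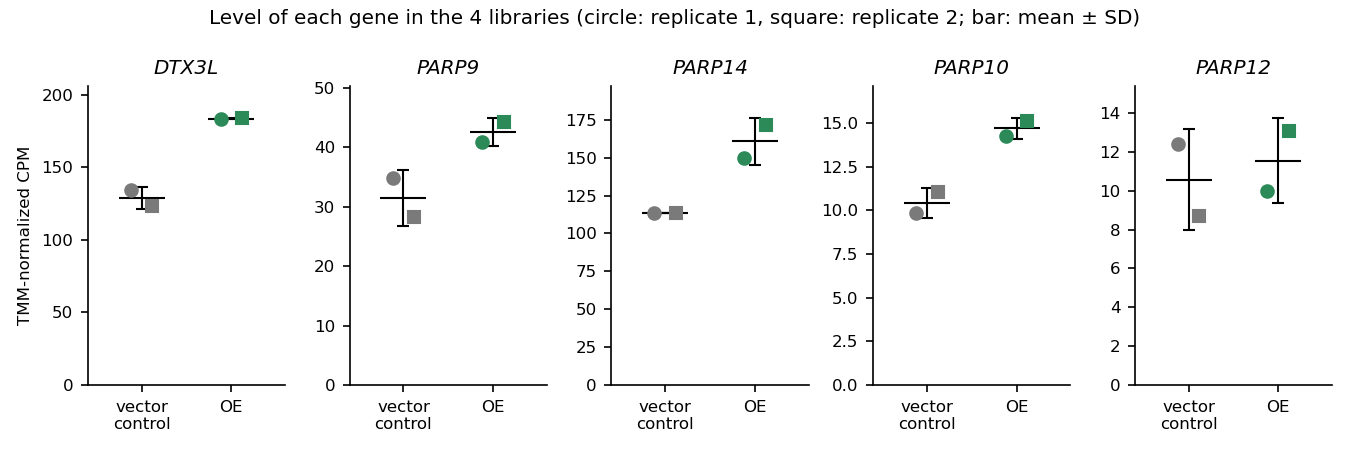
TMM-normalized CPM (vertical axis, from 0) of each gene in the 2 vector control (grey) and 2 OE (green) libraries, with circles for replicate 1, squares for replicate 2 and bars for the mean ± SD. In *DTX3L*, *PARP9*, *PARP14* and *PARP10* both green points lie above both grey points, and in *PARP12* they interleave.

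*DTX3L*, the ubiquitin ligase of the group, had 3130 and 2897 control counts against 4601 and 5320 OE counts. That is 134 and 123 CPM in control against 183 and 184 CPM in OE libraries. The OE libraries were nearly equal, and the lower of them was 1.36-fold above the higher vector control library. The log2 fold change was 0.51 (standard error, SE, 0.0785, 95% interval 0.29 to 0.73, edgeR adjusted p = 0.0931). With DESeq2 *DTX3L* passed the thresholds (adjusted p = 5.69e-09) as 1 of the 5 genes, where 4.35% of the tested genes were called higher and 4.42% lower. Among the related genes described below, *DTX1*, *PARP3*, *H2AFY2* and *NMNAT2* also passed there. On all genes with at least 10 counts DESeq2 again called 1 of the 5, against 3.42% called higher. The adjusted p of *DTX3L* ranged from 5.69e-09 to 0.301 over 17 alternatives.

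*PARP9*, whose product binds ADP-ribose through its macrodomains and pairs with DTX3L, was per length the lowest of the 3 genes on chromosome 3. It had 812 and 663 control counts against 1028 and 1280 OE counts, or 34.9 and 28.2 CPM against 41.0 and 44.3 CPM. The groups did not overlap, but the lower OE library was only 1.17-fold above the higher vector control library. The vector control libraries themselves differed 1.24-fold. The log2 fold change was 0.43 (SE 0.147, 95% interval 0.01 to 0.85, edgeR adjusted p = 0.230). Without vector control replicate 2, the library with the lowest level, it was 0.28.

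*PARP14*, a large macrodomain PARP known as a cofactor of STAT6, had 2649 and 2665 control counts against 3759 and 4965 OE counts. Its level was nearly the same in the vector control libraries (114 and 113 CPM) and differed 1.15-fold between the OE libraries (150 and 172 CPM). Both OE libraries were above the vector control, the lower one by 1.32-fold. The log2 fold change was 0.50 (SE 0.0979, 95% interval 0.22 to 0.78, edgeR adjusted p = 0.118). DESeq2 gave an adjusted p of 5.1e-05 with a log2 fold change of 0.50 that lies just under the study's limit, so that it was not called there.

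*PARP10* lies on chromosome 8, minus strand, between 145051321 and 145086940 and codes for a mono-ADP-ribosyltransferase. It had 229 and 259 control counts against 358 and 437 OE counts. In CPM this was 9.83 and 11.02 against 14.3 and 15.1. The groups did not overlap, and the lower OE library was 1.29-fold above the higher vector control library. The log2 fold change was 0.49 (SE 0.134, 95% interval 0.11 to 0.88, edgeR adjusted p = 0.177), with a DESeq2 adjusted p of 0.0113.

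*PARP12*, a zinc finger PARP, had 289 and 205 control counts against 251 and 379 OE counts. In CPM it was at 12.4 and 8.72 in the vector control and at 10.0 and 13.1 in OE. Each condition held 1 higher and 1 lower library, and the vector control libraries differed 1.42-fold. The log2 fold change was 0.13 (SE 0.262, 95% interval -0.62 to 0.88, edgeR adjusted p = 0.821). The interval includes 0 and the values of the other 4 genes, so these libraries do not exclude a change of their size in *PARP12*. Without vector control replicate 2 the log2 fold change was -0.11, without OE replicate 2 it was -0.08, and without vector control replicate 1 it was 0.40.

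**Figure D2:**
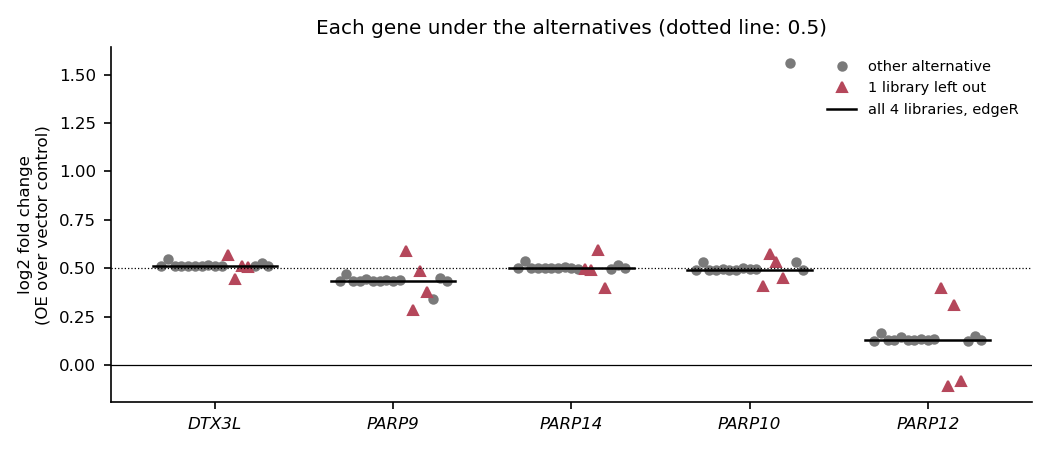
Log2 fold change of OE over vector control (vertical axis) for each gene with all 4 libraries in edgeR (black line), with 1 library left out (red triangles) and under the other alternatives (grey points), with 0.5 as a dotted line. *DTX3L* lies between 0.44 and 0.57 in all of them, and *PARP12* crosses 0.

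The ratio of 2 genes within a library does not depend on the normalization. *DTX3L* had 3.85 and 4.37 counts per count of *PARP9* in the vector control and 4.48 and 4.16 in OE. *PARP14* had 0.846 and 0.920 counts per count of *DTX3L* in the vector control and 0.817 and 0.933 in OE, so both ratios overlapped between the conditions. For *PARP10* the ratio to *DTX3L* was 0.0732 and 0.0894 in the vector control and 0.0778 and 0.0821 in OE. *PARP12* had 0.0923 and 0.0708 counts per count of *DTX3L* in the vector control and 0.0546 and 0.0712 in OE. That ratio, too, overlapped, since the second OE library lay just above the second vector control library.

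Levels of different genes were compared per length, as CPM divided by the transcript length in kilobases. *DTX3L* was the highest, at 22.3 ± 1.36 (SD, n = 2) in the vector control and 31.8 ± 0.0690 (SD, n = 2) in OE. *PARP14* followed with 14.8 ± 0.0316 and 20.9 ± 2.01, and *PARP9* with 9.96 ± 1.33 and 13.5 ± 0.523 (SD, n = 2). *PARP12* (4.24 ± 0.744 in the vector control and 4.65 ± 0.983 in OE) and *PARP10* (3.44 ± 0.335 and 4.73 ± 0.371) were the lowest, their order was opposite in the conditions, and their ranges of mean ± SD overlapped in both. *DTX3L* was thus above its partner *PARP9* per length in each library. With the union of all exons as the length, the order in the vector control was kept, with *PARP9* at 3.53 and *PARP14* at 11.1.

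The table lists 50 transcripts of the 5 genes, of which 14 had a count. All counts of *DTX3L* were on ENST00000296161.4 and all of *PARP14* on ENST00000474629.2. *PARP12* had from 93.7% to 96.5% of its counts on ENST00000263549.3. *PARP9* was placed whole on 1 of 2 transcripts, which differed between replicates. ENST00000360356.2 held all 812 counts of vector control replicate 1 and all 1280 counts of OE replicate 2, and ENST00000477522.2 held all 663 counts of vector control replicate 2 and all 1028 counts of OE replicate 1. With 0 of 663 counts the 95% Wilson interval of the share ends at 0.576%, for counting error only. In the annotation the coding part of these transcripts differs by 105 bases, chr3:122277176-122277280 on the minus strand. They are the 3′ part of an exon that both transcripts have, which ENST00000360356 keeps and ENST00000477522 lacks. ENST00000477522 has 35 further noncoding bases at its 3′ end. The stretch is shown because it is the coding sequence by which the 2 transcripts differ. How reads were assigned to them is not given in the sources used here. Whether the *PARP9* RNA itself differed between the libraries was not tested.
PARP9 exon part: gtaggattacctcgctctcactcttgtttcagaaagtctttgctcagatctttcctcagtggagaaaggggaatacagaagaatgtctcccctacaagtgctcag

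*PARP10* was also placed on different transcripts. ENST00000313028.7 held 97.4% of its counts in vector control replicate 1, 96.9% in OE replicate 1 and 95.4% in OE replicate 2, but 0 of 259 counts in vector control replicate 2, where ENST00000524918.1 held 94.98%. The coding parts of these 2 transcripts differ by 27 bases. Because 1 vector control library is at 0, the log2 fold change of *PARP10* was 1.56 when the gene was represented by its leading transcript alone (edgeR adjusted p = 0.851), against 0.49 for the sum over transcripts. Among 14554 genes with at least 50 counts in every library, the transcript with the most counts differed between libraries in 17.8%, and the conditions are compared only by the sums.

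**Figure D3:**
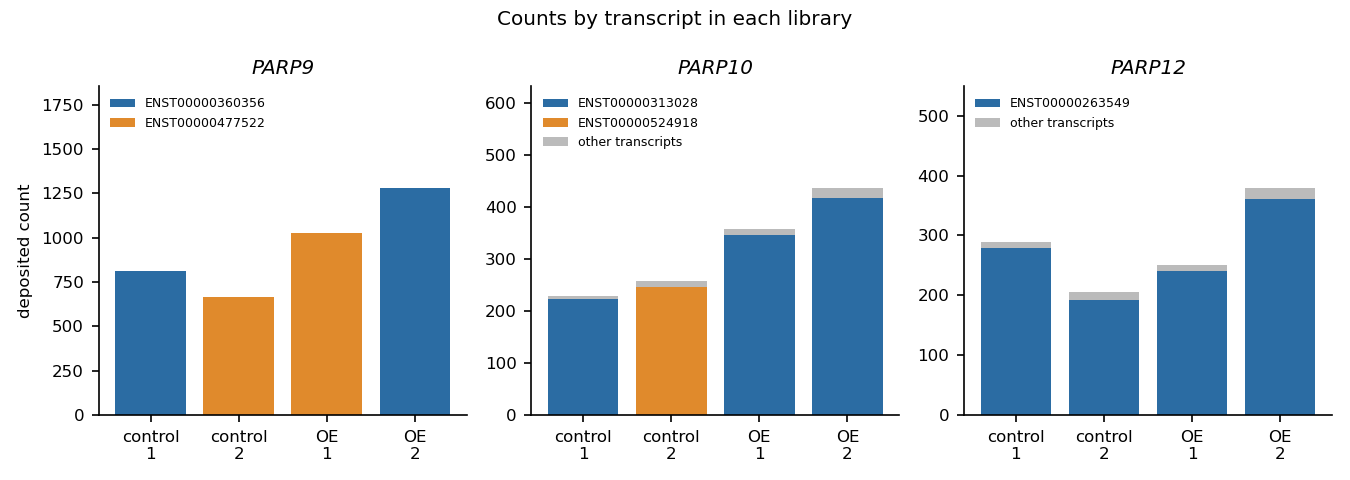
Deposited counts (vertical axis, from 0) of *PARP9*, *PARP10* and *PARP12* in each library, with a colour for each transcript that held at least 10% of the gene's counts in any library. In both conditions the counts of *PARP9* are placed on different transcripts in the 2 replicates. Those of *PARP10* are placed on another transcript only in vector control replicate 2, and *PARP12* keeps its leading transcript.

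Exons of *DTX3L* and *PARP9* share 139 bases on opposite strands, 2.41% of the *DTX3L* transcript and between 4.35% and 4.44% of the *PARP9* transcripts that held counts. Whether the counting used strand is not given in the sources used here, and without strand the reads of this stretch cannot be told apart. The transcripts that held nearly all counts of *PARP10*, *PARP12* and *PARP14* share 0 exonic bases with other genes.

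The neighbours of *DTX3L*, *PARP9* and *PARP14* on chromosome 3 were examined to see whether the difference extended along the chromosome. *PARP15*, which lies between *DTX3L* and *PARP14*, had 5 counts in vector control replicate 2 and 0 counts in the other libraries, and was not tested. On the *PARP9* side, the importin gene *KPNA1* had 2499 and 2309 control counts against 2162 and 2769 OE counts. In CPM it was lower in both OE libraries, as were 27.6% of all tested genes. It was at 103 ± 6.40 CPM in control against 90.9 ± 6.77 CPM in OE libraries (SD, n = 2; log2 fold change -0.18, SE 0.103). *WDR5B* had a log2 fold change of 0.10 (SE 0.139). *WDR5B-DT* was also lower in both OE libraries in CPM (log2 fold change -0.35, SE 0.253). On the *PARP14* side, *HSPBAP1* was at 19.2 ± 3.75 CPM in control against 19.2 ± 2.39 CPM in OE libraries (SD, n = 2). The next gene, the transporter gene *SLC49A4*, was lower in both OE libraries, with 672 and 663 control counts against 507 and 596 OE counts (log2 fold change -0.48, SE 0.0972, edgeR adjusted p = 0.121). Of the tested neighbours within 200 kb of 1 of the 3 genes and with a mean of at least 1 CPM, only *MIX23*, at the far end, also had both OE libraries above, on 59 and 38 control counts against 87 and 86 OE counts (log2 fold change 0.63, SE 0.305, unadjusted p = 0.112 in edgeR). *SEMA5B*, with a mean under 1 CPM, was higher in both OE libraries as well. *LINC02035*, beyond *SLC49A4*, had a log2 fold change of -0.25 (SE 0.199) and *FAM162A*, between *MIX23* and *WDR5B*, one of -0.81 (SE 1.116).

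**Figure D4:**
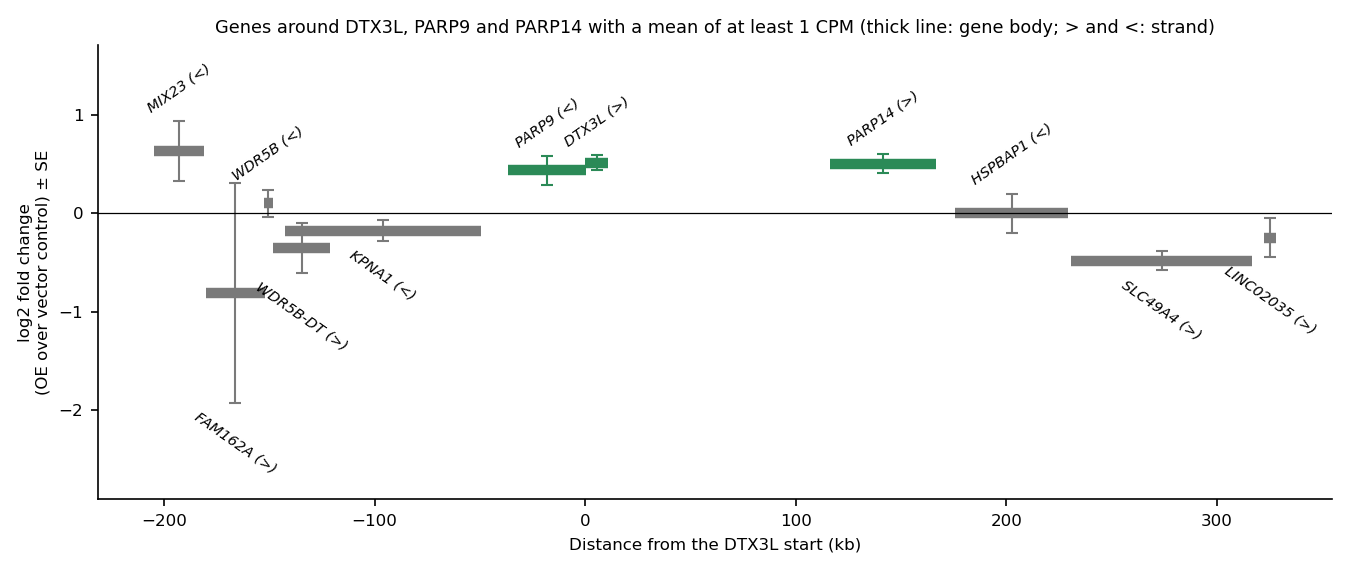
Log2 fold change ± SE (vertical axis) of the genes within 200 kb of *PARP9*, *DTX3L* or *PARP14* that averaged 1 CPM or more, against the distance from the *DTX3L* start in kb (thick lines: gene bodies, green for *PARP9*, *DTX3L* and *PARP14*). The 3 green genes lie between 0.43 and 0.51, and their direct neighbours *KPNA1* and *HSPBAP1* at -0.18 and near 0.

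Around *PARP12*, which overlapped between the conditions, the adjacent histone demethylase gene *KDM7A* was higher in both OE libraries, with 817 and 807 control counts against 1323 and 1647 OE counts (log2 fold change 0.66, SE 0.0947, edgeR adjusted p = 0.0865). Its divergent transcript *KDM7A-DT* had a log2 fold change of 0.70 (SE 0.158). *TBXAS1*, on the other side, had one of -0.16 (SE 0.348). Around *PARP10*, *GRINA* had 2253 and 3125 control counts against 4105 and 5077 OE counts (log2 fold change 0.56, SE 0.184, edgeR adjusted p = 0.221). Some annotated exons of *PARP10* overlap exons of *GRINA*, but not those of the 2 transcripts that held nearly all *PARP10* counts. *PLEC*, on the other side of *PARP10*, was at 1206 ± 2.59 CPM in control against 1006 ± 213 CPM in OE libraries (SD, n = 2). The remaining 10 tested neighbours of *PARP10* with a mean of at least 1 CPM had log2 fold changes between -0.61 and 0.53. Of these, *SCRIB*, *NRBP2*, *EXOSC4* and *MROH1* were higher in both OE libraries, as were 27.8% of all tested genes. *PUF60* and *CYC1* were lower in both, as were 27.6%, and the rest overlapped. *WDR97*, with a mean under 1 CPM, was higher in both OE libraries.

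The rest of the PARP family went both ways. Of 13 further family genes, 12 were tested, 6 were higher and 6 lower in OE, and the median log2 fold change was -0.01. At an unadjusted p under 0.05, 2 were higher and 1 lower, against 10.1% higher and 10.7% lower of all tested genes. *PARP3*, a DNA repair mono-ADP-ribosyltransferase, had 449 and 319 control counts against 710 and 810 OE counts (log2 fold change 0.78, SE 0.210, edgeR adjusted p = 0.176, DESeq2 adjusted p = 0.00754). *PARP11*, a mono-ADP-ribosyltransferase, had 330 and 361 counts against 465 and 544 (log2 fold change 0.34, SE 0.115). *PARP1*, the main poly-ADP-ribose polymerase of the DNA damage response, was lower, at 103 ± 1.06 CPM in control against 74.2 ± 10.6 CPM in OE libraries (SD, n = 2; log2 fold change -0.48, SE 0.131, edgeR adjusted p = 0.180). *ZC3HAV1*, the zinc finger antiviral protein, was at 62.9 and 65.6 CPM in control against 72.1 and 72.6 CPM in OE libraries, with a log2 fold change of 0.17 (SE 0.0832).

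Of the other 4 deltex ligase genes, 3 were higher and *DTX2* was lower, with a median log2 fold change of 0.14. *DTX1*, a regulator of Notch signalling, had 118 and 143 control counts against 225 and 264 OE counts (log2 fold change 0.70, SE 0.165, edgeR adjusted p = 0.149, DESeq2 adjusted p = 0.00384), and was the only one of the 4 with an unadjusted p under 0.05, where 10.1% of all tested genes were higher and 10.7% lower.

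Among 8 genes for enzymes of ADP-ribose removal or for macrodomain proteins, 7 were tested, and 6 were higher and 1 lower. Of the higher genes, 3 had an unadjusted p under 0.05, against 10.1% of all tested genes. The median log2 fold change was 0.16. *OARD1*, which removes ADP-ribose from glutamate residues, had 741 and 698 control counts against 1070 and 1208 OE counts (log2 fold change 0.46, SE 0.0948, edgeR adjusted p = 0.128). *MACROD1*, a mono-ADP-ribose hydrolase, had a log2 fold change of 0.41 (SE 0.137) and *H2AFY2*, which codes for the macrodomain histone variant macroH2A2, one of 0.59 (SE 0.128, DESeq2 adjusted p = 0.000426). *PARG*, the enzyme that degrades ADP-ribose chains, was lower in both OE libraries, at 25.6 and 26.6 CPM in control against 23.7 and 23.4 CPM in OE libraries (unadjusted p = 0.204 in edgeR).

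Of 9 genes for the synthesis and salvage of NAD+, the substrate of the PARP enzymes, 8 were tested. Of these, 6 were higher and 2 lower, and the median log2 fold change was 0.17. *NMNAT2*, the neuronal enzyme of the last step of NAD+ synthesis, had 554 and 541 control counts against 1224 and 1700 OE counts (log2 fold change 1.2, SE 0.133, edgeR adjusted p = 0.0693, DESeq2 adjusted p = 7.94e-13). *NAMPT*, the rate-limiting enzyme of NAD+ salvage, was at 441 and 435 CPM in control against 510 and 547 CPM in OE libraries (log2 fold change 0.27, SE 0.0591, edgeR adjusted p = 0.134). These were the 2 genes of the 8 with an unadjusted p under 0.05, against 10.1% higher and 10.7% lower of all tested genes.

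The genes from the interferon receptors to the STAT factors, with their regulators, are known to act upstream of *DTX3L* and the interferon-inducible PARPs. All 13 were tested, 6 were higher and 7 lower, and the median log2 fold change was -0.02. *STAT2*, a signal transducer of the interferon receptors, had 2419 and 2536 control counts against 3191 and 3758 OE counts (log2 fold change 0.28, SE 0.0733, edgeR adjusted p = 0.169). Its log2 fold change thus lay between 0 and those of *DTX3L*, *PARP14* and *PARP10*, with both OE libraries above the vector control. *IRF9*, the DNA-binding partner of STAT2, was lower in both OE libraries on 24 and 21 counts against 5 and 8 (log2 fold change -1.99, SE 0.417, edgeR adjusted p = 0.128). *IRF1*, an interferon-induced transcription factor, was at 75.7 and 77.3 CPM in control against 97.8 and 53.3 CPM in OE libraries, so its OE libraries lay on both sides of the vector control (log2 fold change -0.02, SE 0.327).

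**Figure D5:**
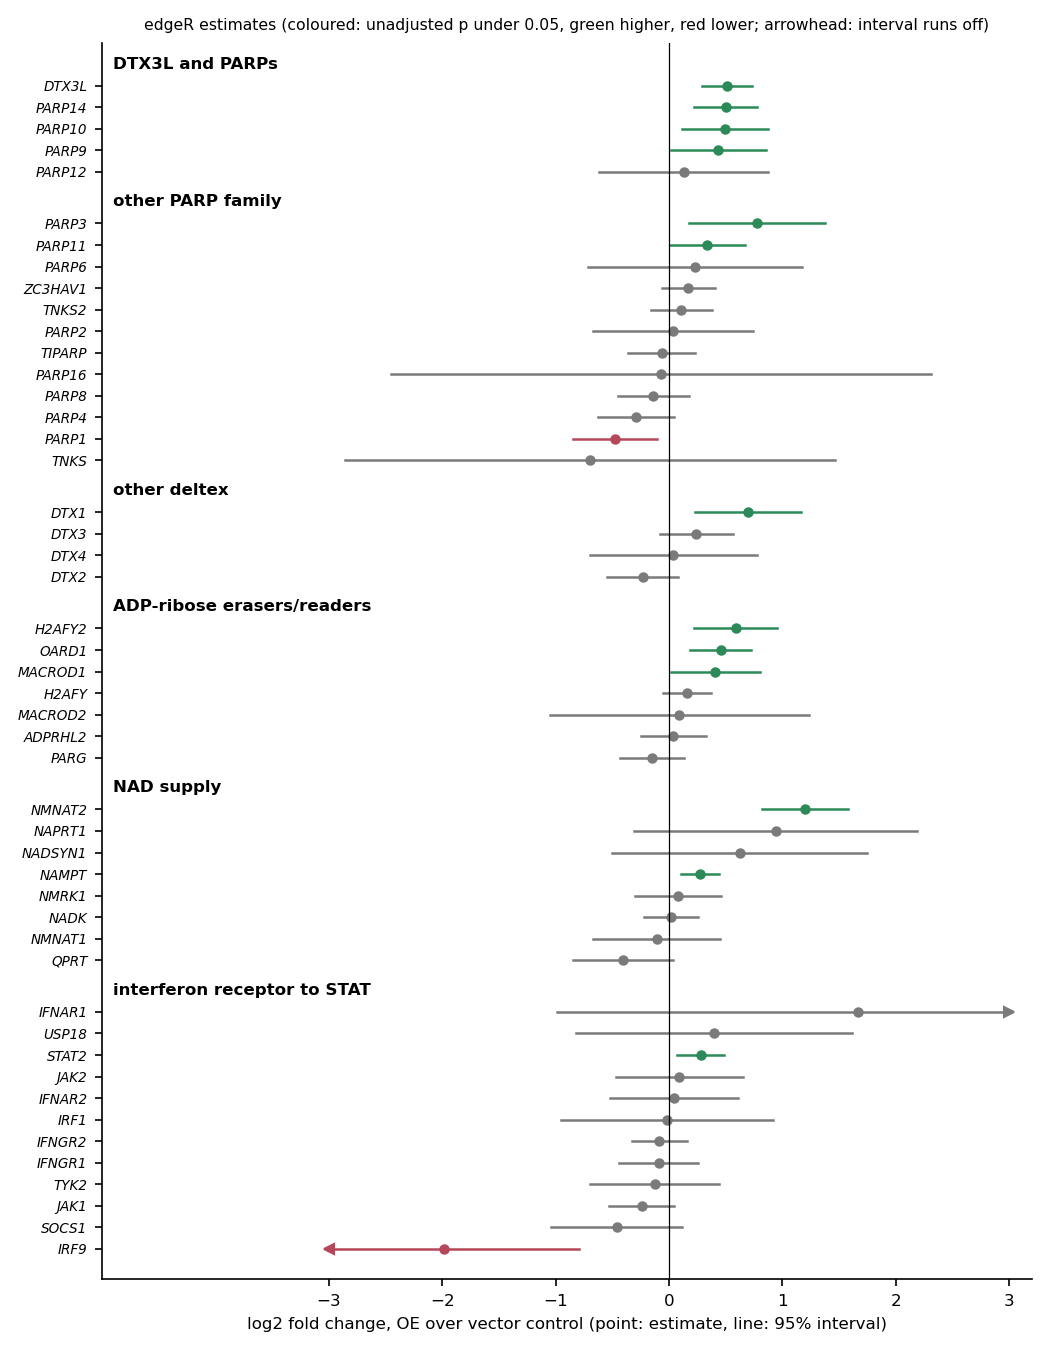
Log2 fold change of OE over vector control (horizontal axis) with its 95% interval for the 5 genes and tested genes of the 5 related lists, with green for genes higher and red for genes lower at an edgeR unadjusted p under 0.05 and arrowheads where an interval runs past the axis. The 4 green members lie between 0.43 and 0.51, and the genes of the other lists spread on both sides of 0.

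The genes with the most similar profile were taken from 14022 other genes that averaged 4 CPM or more, by the Euclidean distance between log2(CPM + 0.5) values centred over the 4 libraries, as a description. Among the nearest to *DTX3L* were *IFIH1* and *FGF5*, at distances of 0.0244 and 0.0269. *IFIH1*, a cytosolic sensor of double-stranded RNA, was at 13.4 and 12.2 CPM in control against 18.1 and 18.6 CPM in OE libraries. Nearest to *PARP9* were *ATG16L2*, *ZBED3* and *ZNF222*, to *PARP14* *CPSF3L*, *GAREML* and *NARS*, to *PARP10* *RP11-443N24.1*, *C9orf91* and *IGFBPL1*, and to *PARP12* *FAM47E*, *NUDT6* and *Z69890.1*. Among the members, the closest pairs were *PARP10* with *PARP14* (distance 0.142) and *DTX3L* with *PARP14* (0.160) and *PARP9* (0.164), and *PARP14* came at rank 300 of 14022 among the genes ordered by closeness to *DTX3L*. *PARP12* was far from the other members, at ranks from 2410 to 6817.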

How the data were processed

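Per the methods, the authors used FastQC for read quality and Trimmomatic for trimming, and aligned to hg19 using Bowtie2. The submitters' processing notes name Bowtie2 2.0.4, Picard 2.21.6, StringTie 2.1.6 and DESeq2. The deposited values are whole-number counts for 196520 transcripts, and the counting tool, annotation release and strand setting are not given in the sources used here.

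Counts were summed per gene identifier. After filterByExpr and TMM scaling, edgeR 4.0.16 was run (quasi-likelihood, legacy setting, R 4.3.3), OE against vector control, without covariates and with Benjamini-Hochberg adjustment over 20528 genes. Standard errors are the log2 fold change over the root of F. The authors' methods name DESeq2, which was run as an alternative (1.42.0), with limma-voom (limma 3.58.1). The thresholds are those of the study. Positions, exons and lengths came from the lifted GENCODE annotation of GRCh37, which holds 96.9% of the tested genes. Transcript versions there are newer than those in the table, so lengths are approximate. The scripts were tested on simulated counts, and figures were drawn with matplotlib 3.10.9.

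The members, lists and tests were chosen with earlier results of these data known. The genes named were the members, list genes with an unadjusted p under 0.05 (at most 5 per list) and *STAT2*, *IRF9* and *IRF1*, neighbours within 200 kb of a member averaging 1 CPM or more, and the 3 nearest profiles per member. *PARG*, *ZC3HAV1*, *PARP15* and *VIM* were named after their values were seen. A count of 0 is read as allowing up to 3 counts, and Wilson intervals cover counting error only, since reads carry no molecular identifiers. Some genes that this rule or the lists include are counted but not reported by name here, in the text or the figures.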

Additional observations from a re-analysis of the deposited data

How the results depend on the processing

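Of 85 values of the 5 log2 fold changes under the alternatives, 81 kept their direction and their side of the thresholds. Few or no genes were called in most edgeR settings, so keeping that side says little there. The setting with an adjusted p under 0.05 repeats the main fold changes. With the leading transcript alone, *PARP9* (log2 fold change 0.34, SE 4.09) and *PARP10* (1.56, SE 2.59) count among the 81. *DTX3L* (log2 fold change 0.51) passed under DESeq2, both on the same genes and on genes with at least 10 counts in total. *PARP12* changed direction with single libraries left out, when it lay between -0.11 and 0.40. The other 4 genes stayed above 0. With all libraries 4 of the 5 had an unadjusted p under 0.05 in edgeR, against 10.1% of all tested genes higher. *PARP9* did not with the replicate block or with protein-coding transcripts alone. With the leading transcript alone neither *PARP9* nor *PARP10* did. The matching shares of all tested genes in these other fits are not given here. The number of genes called over the whole table was 0 in edgeR and under limma-voom, 1800 (893 higher) under DESeq2 on the same genes, 1722 (848 higher) on genes with at least 10 counts, 8 (2 higher) with the non-legacy setting of edgeR, 51 (26 higher) with a robust prior, 9 (3 higher) with a minimum of 1 count in total, 1 (1 higher) with the leading transcript alone and 122 (58 higher) at an adjusted p under 0.05. The cause was not tested. In edgeR 2069 genes were higher and 2200 lower at an unadjusted p under 0.05. With the union of exons as length, levels per length in the vector control were 3.53 for *PARP9*, 1.73 for *PARP10*, 1.92 for *PARP12* and 11.1 for *PARP14*, since the union is longer than the transcripts with counts. The replicate numbers do not pair the libraries (correlation of deviations -0.0222, which is by construction equal for both numbers), and with a replicate block the adjusted p was 0.301 for *DTX3L*, 0.308 for *PARP14*, 0.330 for *PARP10*, 0.379 for *PARP9* and 0.840 for *PARP12*, with 0 genes called. Other scalings moved the mean CPM of the 5 genes by at most 2.31%.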

Other observations

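Single libraries stood apart in several genes around the members or in the related lists, chosen after their values were seen. *IFNAR1*, a chain of the type I interferon receptor, had 466 and 521 control counts, 470 in OE replicate 1 and 3332 in OE replicate 2, so that its log2 fold change of 1.67 rests on 1 library. *TNKS*, a tankyrase that builds ADP-ribose chains, had 3072 and 3000 control counts, 3268 in OE replicate 1 and 852 in OE replicate 2. *FAM162A*, near *PARP9*, had 223 and 186 control counts, 21 in OE replicate 1 and 263 in OE replicate 2. *PARP16* had 107 and 439 control counts against 170 and 445 OE counts, with replicate 1 low and replicate 2 high in both conditions.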
